A study of Mus musculus with 4 samples.

Results

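Immediate early and heat shock genes were followed in mammary glands of mice with and without stathmin, a protein that binds tubulin and destabilises microtubules. The 10 genes were Fos, Fosb, Jun, Junb, Egr1, Egr2, Atf3, Hspa1a, Hspa1b and Dnajb1. They were found through the accession that the scanner files give each probe, matched to mouse RefSeq, which gave 14 non-control probes out of 41174. In all, 18952 genes could be named in this way. Tissue came from 13-week-old female mice, all transgenic for Δ16HER2 (an oncogenic HER2 variant made by skipping an exon), at a stage the labels call pre-neoplastic. The series labels 2 arrays WT (WT 1 and WT 2) and 2 arrays STM KO, that is stathmin knockout (knockout 1 and knockout 2), so both groups carry the transgene. No group without it was analysed here. A description shared by all 4 samples names EOC cells, against mammary gland in every other label, and the tissue is given here after the latter. The labels name no promoter for the transgene, do not say whether animals were pooled, and do not say that the samples came from separate animals, so p-values reflect only the spread among these 4 samples, which may be technical.

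Immediate early genes are transcribed within minutes of a stimulus, without new protein synthesis, because their activators are already in the cell and wait for a kinase signal. Fos and Jun proteins pair through leucine zippers to form AP-1, EGR proteins bind GC-rich sites through zinc fingers, and Atf3 is a stress-induced repressor of the ATF/CREB family. Inducible heat shock genes are switched on by HSF1 when proteins misfold, and their products, Hsp70 and its J-domain partner Hsp40, refold them.

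Upstream sequences were taken from RefSeq (build GRCm38.p6) for 9 of the 10 genes. They made 14 windows of 250 bases, each ending just before an annotated start site. Egr1 was left out of this scan, so its upstream motifs are not known here. Hspa1a and Hspa1b are shown whole because they are near copies whose probes are discussed side by side below. Capitals mark GAAGATTC, a match to the paired heat shock repeat (GAANNTTC or TTCNNGAA, both strands), in the windows at chr17:34972157-34972406 for Hspa1a and chr17:34959239-34959488 for Hspa1b, both on the minus strand.
Hspa1a: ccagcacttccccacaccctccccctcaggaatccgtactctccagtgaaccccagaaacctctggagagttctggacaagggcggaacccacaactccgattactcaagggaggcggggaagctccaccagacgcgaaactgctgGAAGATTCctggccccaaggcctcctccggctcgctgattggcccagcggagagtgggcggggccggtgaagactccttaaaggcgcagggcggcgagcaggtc
Hspa1b: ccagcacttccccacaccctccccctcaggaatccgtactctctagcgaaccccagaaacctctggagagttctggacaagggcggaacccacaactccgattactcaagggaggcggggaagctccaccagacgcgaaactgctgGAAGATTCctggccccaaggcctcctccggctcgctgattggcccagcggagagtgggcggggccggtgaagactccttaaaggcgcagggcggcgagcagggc

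These windows shared 247 of 250 bases (98.8%). The differences from Hspa1a to Hspa1b, counted from 1 at the 5′ end of the window, were C44T, T47C and T249G. The genes lie 10120 bases apart. The paired repeat was found in windows of 4 of the 9 genes (Hspa1a, Hspa1b, Jun and Egr2) and in 12.8% of all 32817 windows of this length. The longer heat shock element adds 1 more repeat unit to the paired form and so contains it. It had no exact match in the 14 windows and was found in 0.466% of all.

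Shorter stretches are shown for Atf3, the gene with the largest difference between groups, and for Fos and Egr2, whose replicate spots are described below. Capitals mark an ATF/CRE site in Atf3, a TATA box in Fos and a CArG box, the site of serum response factor, in Egr2. The stretches lie at chr1:191183334-191183433 (minus strand), chr12:85473790-85473889 (plus strand) and chr10:67537787-67537816 (plus strand).
Atf3: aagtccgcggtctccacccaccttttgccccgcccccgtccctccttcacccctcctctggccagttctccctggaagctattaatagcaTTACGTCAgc
Fos: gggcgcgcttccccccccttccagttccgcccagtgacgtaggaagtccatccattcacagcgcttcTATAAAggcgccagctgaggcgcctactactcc
Egr2: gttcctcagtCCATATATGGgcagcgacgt

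The ATF/CRE motif was spelled TNACGTCA or TGACGTNA after the Atf3 window had been read, and it was found in 2.52% of all windows and in no other of the 9 genes. The CArG box was found in windows of Egr2 alone among the 9 genes and in 1.47% of all windows. Egr1 was not scanned for it. The TATA box (TATAAA or TTTATA) was found in Fos alone among them and in 12.4% of all. An EGR site (GCGGGGGCG or GCGTGGGCG, both strands) was found in Fosb alone among them and in 3.06% of all. An AP-1 site (TGAGTCA or TGACTCA) was found in none of the 14 windows and in 4.46% of all, and the CCAAT box (CCAAT or ATTGG) in 6 of the 9 genes and 33.8% of all windows. A match is a stretch of letters, not a measured binding site. Only exact spellings within 250 bases were sought, so a gene without a match may hold a looser or more distant site.

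Levels below are log2 of the processed Cy3 signal minus the 75th percentile of that array, so 0 means a signal equal to that percentile. A level compares arrays for 1 probe and not probes with each other. A fold change is the knockout mean less the wild-type mean on this scale, with its standard error from limma, a linear model with a pooled estimate of the spread. Over the 4 arrays, 54.7% to 66.2% of probe spots were well above background, no spot was saturated, and Pearson correlations between arrays across probes ran from 0.967 to 0.979. All 4 arrays lay on 1 slide, with the wild-type samples in the first positions, and the effect of position cannot be told apart from that of genotype. The targeted gene did not settle the labels. The brighter Stmn1 probe read 5.59 and 3.59 in wild type and 4.56 and 3.34 in knockout, while the dimmer one was well above background on WT 1 alone. The labels call the tissue epithelial, and all 9 luminal and all 6 basal epithelial markers were well above background on every array. So were all 6 adipocyte, all 6 fibroblast and all 6 skeletal muscle markers. In such mixed tissue, a lower level can come from fewer cells of a type or from less RNA per cell, and these cannot be told apart. Milk secretory markers were lower in knockout without overlap for 5 of 5 tested, beside 17.7% of all tested genes. The linear levels of these 5 summed to 116 and 26.0 on the wild-type arrays and to 6.43 and 5.16 in knockout. Such sums, here and below, weigh bright probes most and are read only between arrays. On WT 1 the brightest were Csn1s1 (log2 level 6.24) and Csn2 (5.29). The part of milk secretory cells in the values below was not tested. Of the 5, Wap passed the filter only through wild type. Glycam1 was untested, and with it the sums were 118, 26.0, 6.45 and 19.1.

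None of the 10 genes had a probe past the adjusted p threshold of 0.05 (limma, Benjamini-Hochberg over 24183 tested probes), and the share called over all probes was 0% as well. Of the 14 probes, 13 passed the filter on dim signals and 12 were bright enough to stand well above background on every array. Atf3 alone had an unadjusted p under 0.05, 1 of 13 probes, against 1.05% of all tested probes higher, and 0 were lower, against 2.65%. For 4 of the 13 probes the knockout pair lay wholly above the wild-type pair, against 15.6% of all probes, and for 1 it lay below, against 18.9%. The median log2 fold change was 0.08 over the 13 probes and -0.04 over all tested probes. These 13 count some genes more than once. By brightest probe, 5 of the 10 genes were positive and 5 negative, with a median of -0.0015 beside -0.0057 over all tested genes. Counted so, the knockout pair lay wholly above for 3 of the 10 and below for 1, beside 17.8% and 17.7% of all genes. The Fos, Fosb, Jun and Junb probes were all negative, although Fos, Fosb and Jun turned positive under median scaling (0.11, 0.0602 and 0.0888). All 5 tested heat shock probes were positive with a median of 0.61, or 0.80 under median scaling. Of the 8 immediate early probes 6 were negative with a median of -0.12, but under median scaling 2 were negative and the median was 0.07.

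**Figure D1:**
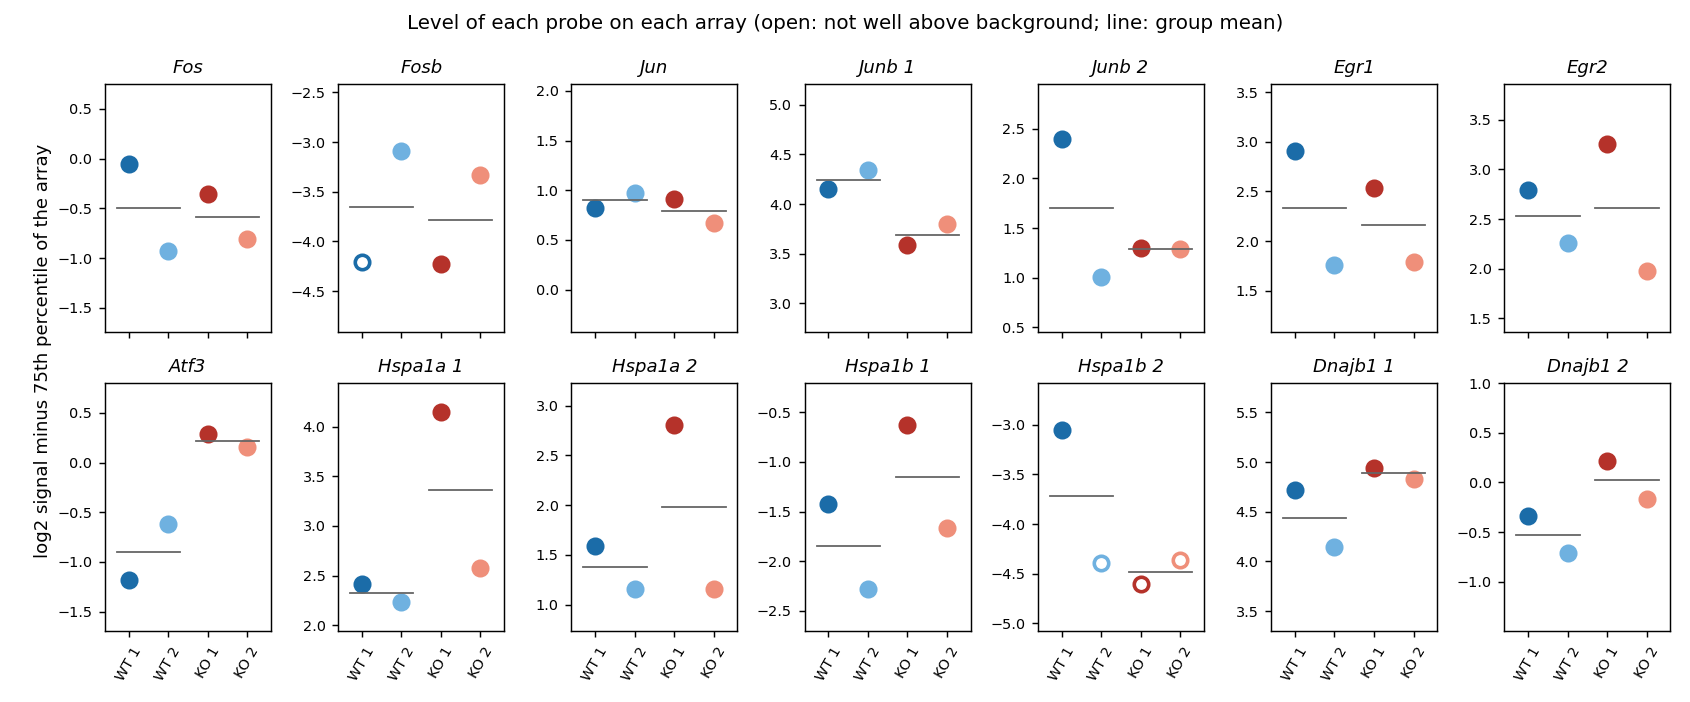
Level of each probe on each array, as log2 signal minus the array's 75th percentile, with every panel spanning the same log2 range. Filled points were well above background, open points were not, lines are means of the 2 arrays of a group, and numbers after a gene name rank its probes by brightness. Atf3 separates the groups, and the Hspa1a panels have 1 high point at knockout 1. Hspa1b 1 is also highest there, with WT 1 next, and Fos and Egr1 are high on WT 1 and knockout 1.

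Atf3 had the largest fold change of the 10 genes. Its single probe (NM_007498) gave signals of 84.3 and 93.7 on WT 1 and WT 2 and of 355 and 178 on knockout 1 and knockout 2. Relative to each array's 75th percentile this was -1.18 and -0.62 in wild type and 0.28 and 0.15 in knockout. The groups did not overlap, and the knockout arrays lay within 0.13 of each other while the wild-type arrays differed by 0.56. The difference was 1.12 ± 0.29 log2 units (SE, 2 arrays a group), or 2.17-fold, with a 95% interval from 0.38 to 1.87. The limma adjusted p was 0.936 and the unadjusted p 0.0114, and leaving out 1 array at a time gave folds from 0.84 to 1.40. Without WT 1 the unadjusted p was 0.0826, so that call was lost. Normexp background correction, chosen after seeing the data, gave a fold of 0.62 with an unadjusted p of 0.0576 in limma, below the 0.96 of the brighter Hspa1a probe under that setting.

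The genes around Atf3 in the integrated stress response, in which eIF2α kinases raise Atf4 translation and Atf4 induces stress genes, were described as a list. All 14 listed genes were tested, 6 positive and 8 negative, with a median of -0.13 beside -0.01 over all 13204 tested genes. None passed the adjusted p in limma. At an unadjusted p under 0.05 there were 0 higher and 1 lower, beside 1.14% and 2.41% of all genes. The knockout pair lay wholly above the wild-type pair for 2 genes and below for 2, where 17.8% and 17.7% of all genes did so. Chac1, which degrades glutathione and is a target of Atf4, read 3.20 and 3.07 in wild type and 2.24 and 2.33 in knockout, a log2 fold of -0.85 ± 0.24 (SE). Ddit3, which encodes the transcription factor CHOP, had 0.24 ± 0.24. Eif2ak3, the kinase PERK, had 0.19 ± 0.24, and Herpud1, a factor of protein disposal at the endoplasmic reticulum, had -0.31 ± 0.25. Chac1 and Herpud1 had the opposite sign to Atf3, while Ddit3 and Eif2ak3 had the same sign. The groups did not overlap for any of these genes.

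Hspa1a and Hspa1b, which encode inducible Hsp70, were highest on knockout 1, except on the dimmer Hspa1b probe. The brighter Hspa1a probe (NM_010479, chr17:34969359-34972156, GRCm38.p6) gave signals of 1023 and 678 on WT 1 and WT 2, 5151 on knockout 1 and 957 on knockout 2. Its levels were 2.42 and 2.23 in wild type and 4.14 and 2.58 in knockout. Knockout 1 stood 1.56 above knockout 2, a 2.95-fold difference within the group, while the wild-type arrays differed by 0.19. The difference of 1.04 ± 0.54 log2 units (SE, 2 arrays a group, limma adjusted p = 0.936) had an interval from -0.33 to 2.40. It was 0.26 without knockout 1 and 1.82 without knockout 2. Knockout 1 also had the highest 75th percentile of signal, 291 against 144 to 191 on the other arrays. The level subtracts that percentile, and any further part of array brightness in the Hspa1a levels was not tested. Of all tested probes, 4.30% spanned a wider range than this probe over the 4 arrays.

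The other probes of the pair showed the same array on top where they were bright enough. The second Hspa1a probe read 1.59 and 1.16 in wild type, 2.81 on knockout 1 and 1.15 on knockout 2, so the groups overlapped. Its log2 fold change was 0.61 ± 0.58 (SE), and it turned to -0.22 without knockout 1. The brighter Hspa1b probe (NM_010478, chr17:34956429-34959238) read -1.42 and -2.28 in wild type, -0.63 on knockout 1 and -1.67 on knockout 2, a fold change of 0.70 ± 0.48. That fold was 0.18 without knockout 1, 0.27 without WT 2, 1.13 without WT 1 and 1.22 without knockout 2. The dimmer Hspa1b probe was well above background on WT 1 alone, with signals of 23.0, 6.90, 11.98 and 7.77 in the same array order. It failed the filter on dim signals, and 3 of its 4 values give no measured level. Binding of 1 copy's transcript to the other copy's probe was not tested. The dim Hspa1b probe did not follow the brighter 3.

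Dnajb1, the Hsp40 that hands clients to Hsp70, had smaller differences on both probes. The brighter probe (NM_018808) read 4.72 and 4.15 in wild type and 4.94 and 4.83 in knockout. The dimmer one read -0.34 and -0.71 against 0.21 and -0.17. On both probes the knockout arrays lay above the wild-type arrays without overlap. The log2 fold changes were 0.45 ± 0.30 and 0.55 ± 0.29 (SE), with intervals from -0.30 to 1.20 and from -0.18 to 1.27 and an adjusted p of 0.936 for each in limma. Leaving out 1 array at a time kept them between 0.16 and 0.74 and between 0.35 and 0.74. The lowest value of the brighter probe was reached without WT 2, and without knockout 1 the folds were 0.40 and 0.35.

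**Figure D2:**
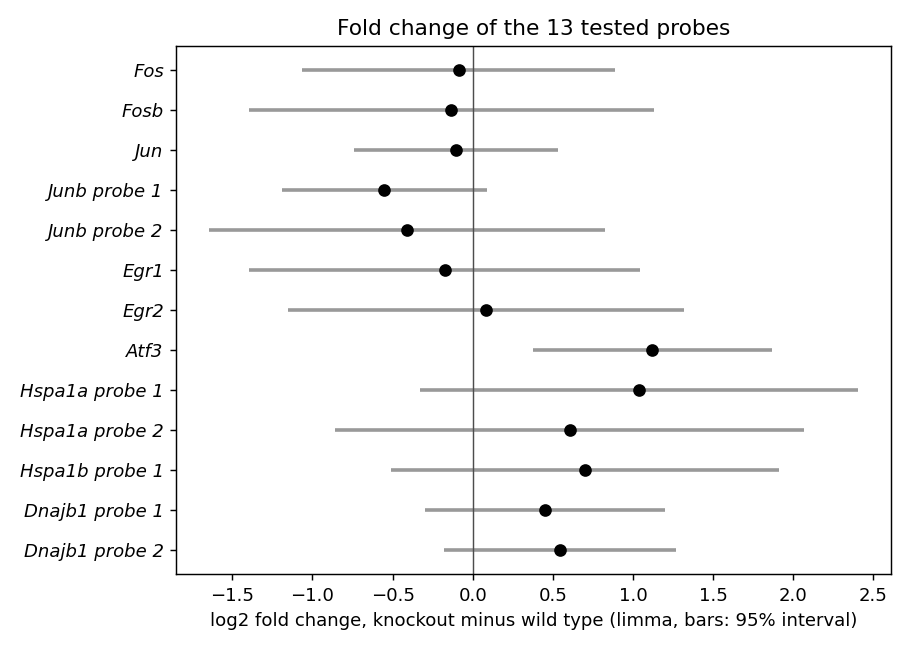
Log2 fold change, knockout minus wild type, of the 13 tested probes on the x axis, with 95% intervals from limma (2 arrays per group). The interval of Atf3 runs from 0.38 to 1.87, before any adjustment over probes, and every other interval crosses 0.

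All 5 tested heat shock probes (2 of Hspa1a, 2 of Dnajb1 and 1 of Hspa1b) were highest on knockout 1. That array was the highest for 21.7% of all tested probes. The untested dimmer Hspa1b probe was highest on WT 1. Probes of 1 gene, and of the near copies Hspa1a and Hspa1b, are not separate observations. Other chaperones were described as a list. Of 30 listed heat shock factors and chaperones, 29 were tested, 14 positive and 15 negative, with a median of -0.01, and 9 of the 29 (31.0%) were highest on knockout 1, beside 25.8% of all tested genes. The 9 were Ahsa1, Chordc1, Dnaja1, Dnajb4, Dnajb9, Fkbp4, Hspb1, Hspb8 and Stip1. A larger number, 12 of the 29, were highest on WT 1, beside 25.5% of all tested genes. The 12 were Dnajb6, Hsf2, Hsp90aa1, Hsp90ab1, Hspa13, Hspa1l, Hspa5, Hspa8, Hspa9, Hspe1, Hsph1 and Serpinh1. None of the 29 passed the adjusted p. At an unadjusted p under 0.05 limma gave 1 higher, Hspb1, and 0 lower, beside 1.14% and 2.41% of all genes. The knockout pair lay wholly above the wild-type pair for 4 of the 29 and below for 5, beside 17.8% and 17.7% of all genes. Hspb1, the small heat shock protein Hsp27, read 3.69 and 4.49 in wild type and 5.13 and 4.87 in knockout, a log2 fold of 0.92 ± 0.35 (SE). Hspa13, Hspa2 and Hspa4, members of the wider Hsp70 family, had -0.85 ± 0.38, -0.81 ± 0.38 and -0.80 ± 0.36. Second probes gave 0.03 for Hspa13 and -0.79 for Hspa2, and the other Hspa4 probes gave -0.37 and 0.44.

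Fos, Jun and Egr2 were each spotted 10 times on every array, which separates spot error from the difference between arrays. Across all 165 probes with 10 spots that every array measured well above background, the median SD between spots of 1 array was 0.149 on the log2 scale. Replicate spots share 1 labelled sample, so they are not replicates of the genotype. For Fos (NM_010234) the spots gave a level of -0.06 ± 0.12 (SD over 10 spots) on WT 1 and -0.93 ± 0.18 on WT 2. On knockout 1 they gave -0.36 ± 0.09 and on knockout 2 -0.81 ± 0.20. The 10 WT 1 signals ran from 159 to 208 and the 10 WT 2 signals from 59.9 to 89.5. The wild-type arrays therefore differed by 0.88, several times the spot SD, and both knockout arrays lay between them. The log2 fold change of Fos was -0.09 ± 0.38 (SE), with an interval from -1.06 to 0.89.

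Jun (NM_010591) was the most even of the genes. It read 0.83 ± 0.17 (SD over 10 spots) and 0.97 ± 0.14 in wild type and 0.91 ± 0.16 and 0.67 ± 0.09 in knockout, with overlap between the groups. The whole range over 4 arrays was 0.30, and 88.9% of all tested probes spanned more. Its log2 fold change was -0.10 ± 0.25 (SE), with an interval from -0.74 to 0.53.

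Egr2 (NM_010118), a zinc-finger factor also known as Krox20, read 2.79 ± 0.12 (SD over 10 spots) and 2.26 ± 0.10 in wild type. It read 3.25 ± 0.07 on knockout 1 and 1.97 ± 0.50 on knockout 2, so the highest and the lowest array were both knockouts. The large SD on knockout 2 came from 1 spot with a signal of 248, where the other 9 ran from 623 to 846 and none carried an outlier flag. Without that spot knockout 2 read 2.12 ± 0.17 and remained the lowest array. The log2 fold change was 0.08 ± 0.49 (SE), or 0.16 without that spot, and it ran from -0.56 to 0.72 as single arrays were left out.

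**Figure D3:**
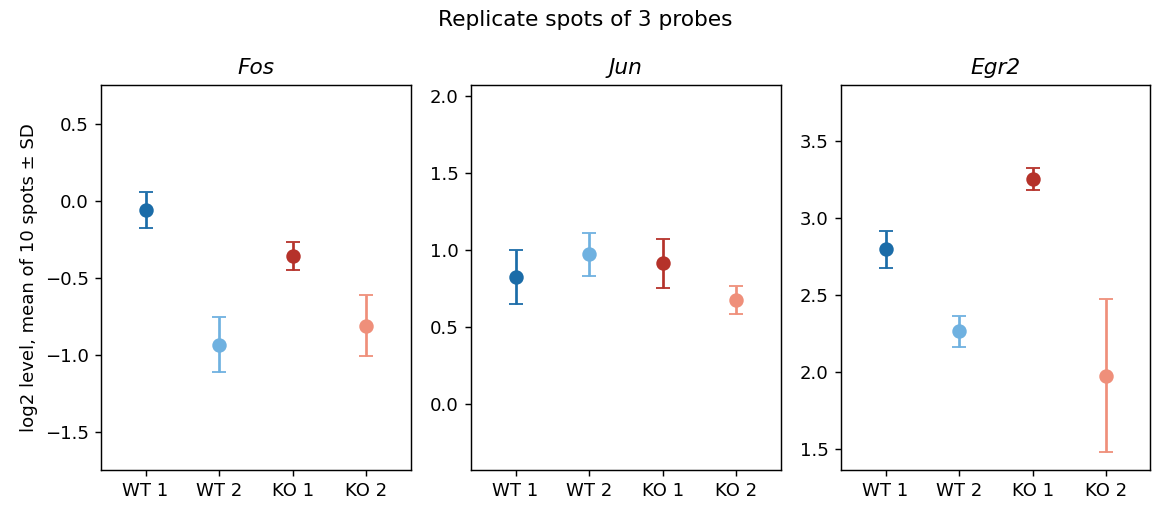
Mean level of 10 replicate spots with its SD (bars) on each array for Fos, Jun and Egr2, on the log2 scale relative to the array's 75th percentile. The WT 1 and WT 2 means of Fos lie 0.88 apart with spot SDs of 0.12 and 0.18, and the Jun means lie within 0.30 of each other.

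Egr1 (NM_007913), the zinc-finger factor that serum and growth factors induce through serum response factor, followed the order of Fos. It read 2.91 and 1.76 on WT 1 and WT 2, then 2.53 and 1.79 on knockout 1 and knockout 2. The first array of each group was the higher one, by 1.14 in the wild type and 0.74 in the knockout, and the groups overlapped. Its log2 fold change was -0.17 ± 0.48 (SE), with an interval from -1.39 to 1.05. Replicate numbers were not linked between groups by the labels. Of the 13 probes, 9 were higher on WT 1 than on WT 2 and 11 were higher on knockout 1 than on knockout 2, where 51.2% and 41.2% of all tested probes were. The 13 include repeat probes of Junb, Hspa1a and Dnajb1, which are not separate observations. The 6 basal epithelial markers were all tested and well above background on every array. After each gene's mean over the 4 arrays was removed, their median was 0.31 on WT 1 and -0.16 on WT 2. It was 0.50 on knockout 1 and -0.49 on knockout 2. Over all tested genes these medians were 0.003, 0.01, -0.009 and 0.02. Oxtr ran the other way in both groups. Their summed linear level was 68.8 and 55.1 on WT 1 and WT 2 against 59.6 and 45.7 on knockout 1 and knockout 2, of which Acta2 made up 69.1% to 81.6%. That sum was lowest on knockout 2, where Fos and Egr1 were lowest on WT 2. The part of these cells in the Fos and Egr1 values was not tested.

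Junb, the AP-1 subunit, was the only gene of the 10 with both knockout arrays below both wild-type arrays on a probe. Its brighter probe (NM_008416) read 4.15 and 4.34 in wild type and 3.58 and 3.80 in knockout, a log2 fold of -0.55 ± 0.25 (SE, limma adjusted p = 0.936, unadjusted p = 0.0777). The interval ran from -1.19 to 0.09, and leaving out 1 array gave -0.66 to -0.44. The dimmer probe disagreed in its order, with 2.40 and 1.01 on WT 1 and WT 2, then 1.30 and 1.29 on knockout 1 and knockout 2. Its fold of -0.41 ± 0.49 rested on WT 1 and was 0.28 without that array. Fibroblast markers also stood lower on both knockout arrays, for 6 of 6 genes without overlap (17.7% of all tested genes), with summed levels of 382 and 376 in wild type and 246 and 255 in knockout. Other cell types also had such markers. Endothelial, skeletal muscle and macrophage markers were lower without overlap for 3 of 6 each, and mast cell and granulocyte markers for 3 of 5. Luminal markers were so for 2 of 9, basal for 1 of 6 and adipocyte for 0 of 6. The part of any of these cells in the Junb level was not tested.

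Fosb was close to background. Its probe (NM_008036) gave signals of 10.4, 16.9, 15.5 and 15.9 in the array order above and was not well above background on WT 1. Its levels were -4.20 and -3.09 in wild type and -4.23 and -3.33 in knockout, so the groups overlapped. The log2 fold change of -0.13 ± 0.50 (SE) changed sign to 0.17 under quantile normalization. The remaining AP-1 proteins are partners and rivals of Fos and Jun. All 7 listed were tested, 2 positive and 5 negative, with a median of -0.06, and none had an unadjusted p under 0.05 in limma. Jund, another Jun protein, named after its values were seen, read 5.48 and 5.64 against 5.45 and 5.61. Atf2 had -0.39 ± 0.29 (SE), its other probes 0.05, -0.18 and 0.40, and Batf3, which dendritic cells and lymphocytes express, had 0.38 ± 0.40.

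Immediate early genes outside the 10 were split between both signs. Of 29 listed, 24 passed the filter, 12 positive and 12 negative, with a median of 0.01. None passed the adjusted p, and at an unadjusted p under 0.05 limma gave 1 lower, Ccn2, and 1 higher, Cxcl1, which passed the filter only through the knockout arrays, where it was high. The shares over all genes were 2.41% lower and 1.14% higher. The knockout pair lay wholly above the wild-type pair for 4 of the 24 and below for 5, beside 17.8% and 17.7% of all genes. Ccn2, a matricellular target of YAP and serum response factor, read 1.5 and 0.93 in wild type and 0.11 and 0.33 in knockout, a log2 fold of -1.0 ± 0.30 (SE). Ier3 had -0.67 ± 0.26, and Arc, an immediate early gene best known in neurons, had 0.60 ± 0.31. The chemokine gene Cxcl1 was not well above background on either wild-type array and read -3.91 and -2.65 in knockout. Egr3, Egr4, Ptgs2 and Il6 were not well above background on any array.

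Upstream factors were described in the same way. Of 17 listed kinases, transcription factors and EGR corepressors, 16 had a probe and 15 were tested, 7 positive and 8 negative, with a median of -0.10 and none with an unadjusted p under 0.05 in limma. The knockout pair lay wholly above the wild-type pair for 6 of the 15 and below for 3, beside 17.8% and 17.7% of all genes. Crem, a CREB relative, had the largest value, 0.53 ± 0.28 (SE), and its 4 other probes gave 0.10 to 0.35. The kinase genes Mapk9 and Rps6ka3 had 0.33 ± 0.27 and 0.30 ± 0.26, though the other Mapk9 probes gave -0.08 and -0.36. Elk3, an ETS partner of serum response factor, had -0.33 ± 0.24, its other probe 0.07, and Srf itself, named after its values were seen, read 1.66 and 1.59 against 1.85 and 1.82.

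**Figure D4:**
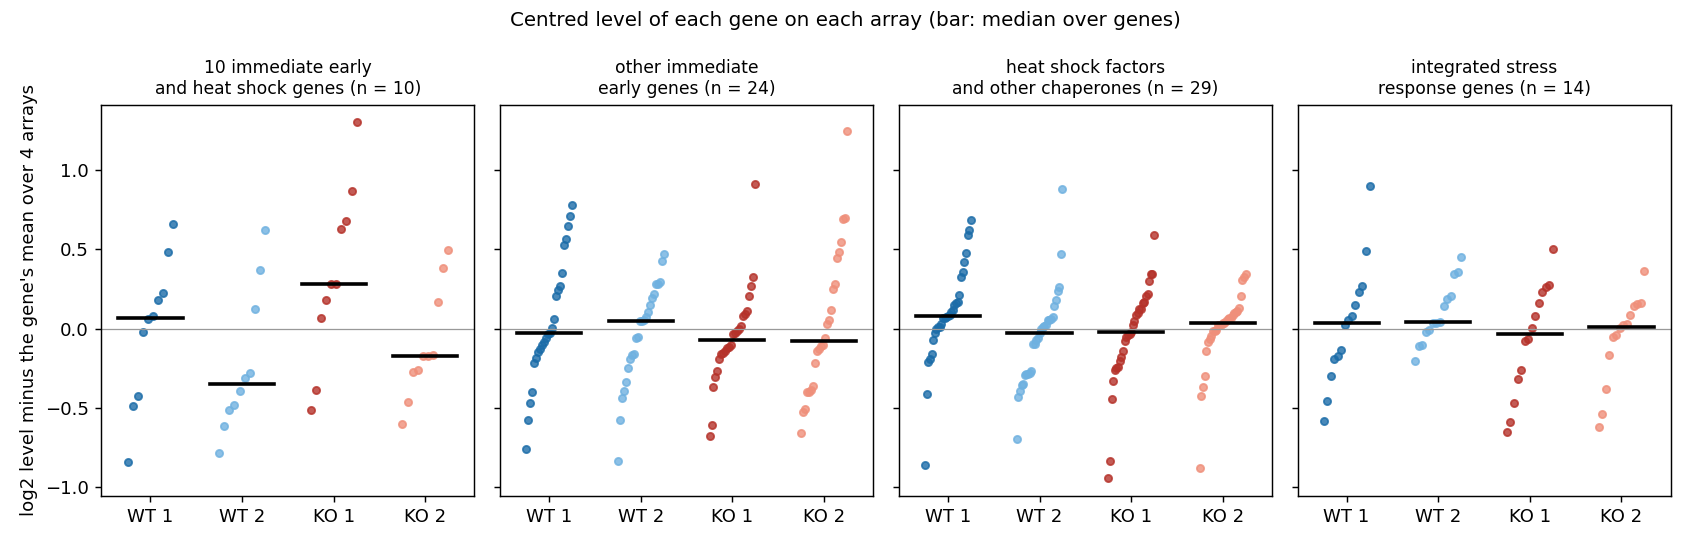
Level of each tested gene on each array minus its own mean over the 4 arrays (log2), for the 10 genes and 3 related lists, with bars at the median. The median of the 10 genes is 0.28 on knockout 1 and -0.35 on WT 2, while the medians of the 3 lists shown lie between -0.08 and 0.08.

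Array by array, the 10 genes (brightest probe each) had centred medians of 0.07 and -0.35 on WT 1 and WT 2, then 0.28 and -0.17 on knockout 1 and knockout 2. Over the arrays, those of the other AP-1 proteins ran from -0.13 to 0.10 and those of the upstream factors from -0.10 to 0.13. Of the 13 probes, 7 were highest on knockout 1 and 0 on knockout 2, beside 21.7% and 28.8% of all tested probes. By brightest probe, 5 of the 10 genes were highest on knockout 1 and 0 on knockout 2, beside 25.8% and 25.7% of all tested genes. WT 2 was the lowest array for 7 of the 13 probes and for 20.0% of all tested probes. Lymphocyte markers were highest on knockout 2. The summed level of 7 B cell markers was 23.8 there and 0.568 to 0.845 on the other arrays, with Pax5 and Blk not well above background on any array. That of 8 T and NK cell markers was 16.1 there and 1.18 to 1.35 elsewhere, with Cd4 not well above background on any array. The part of these cells in the lower values of the 10 genes on knockout 2 was not tested, and no probe of the 10 genes was highest there.

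The genes closest to Fos, Atf3 and Hspa1a in their course over the 4 arrays were found by the root mean square difference between centred log2 levels, among 12159 named genes that every array measured well above background. Nearest to Fos stood Mettl16 at 0.028, Rpa2 at 0.044 and Cox15 at 0.053, where the centred Fos levels themselves had a root mean square of 0.352. Nearest to Atf3 stood Tmem120b at 0.050, Gnb5 at 0.100 and Cela1 at 0.117, against 0.596 for Atf3 itself. Nearest to Hspa1a stood Eepd1 at 0.086, H2bc1 at 0.134 and Aurkaip1 at 0.255, against 0.761 for Hspa1a. Over 4 arrays such likeness is a description, and none of these 9 genes is an immediate early or heat shock gene on the lists used.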

How the data were processed

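Per the labels, total RNA of each sample was made into Cy3-labelled cRNA for Agilent one-colour arrays. The authors deposited spot intensity files made by Agilent Feature Extraction (11.5.1.1 per the file headers, 10.7.3.1 per the submitters' processing notes). The steps behind the processed signal are not given in the sources used here. A second table the authors deposited holds log2 values that track quantile-normalized log2 signals after each probe's own median is removed (Pearson r at least 0.99999). Its column medians were -0.018, 0.018, 0.006 and -0.010 in the order WT 1, WT 2, knockout 1, knockout 2. Flags deposited with each spot were used as given.

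Spots with outlier flags (35 to 73 per array) and control spots were left out, replicate spots averaged on the log2 scale, and each array's 75th percentile (191, 144, 291 and 160 in the same order) subtracted. Probes well above background on both arrays of a group were tested with limma 3.58.1 in R 4.3.3, and the fit was tested on simulated data. Adjusted p-values are Benjamini-Hochberg over all 24183 tested probes. With 2 arrays per group an exact permutation test cannot go below p = 0.333. Signal over background and the number of arrays limit precision. Accessions without version were matched to RefSeq (GRCm38.p6), which named 27816 probes and left 13358 unnamed. List genes are represented by their brightest probe. The genes, lists and rules were chosen with earlier results of these data known. Named are all probes of the 10 genes and, per list, up to 4 genes with the largest folds among those whose groups do not overlap, filled to 2 by size.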

Additional observations from a re-analysis of the deposited data

How the results depend on the processing

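Results were recomputed under 10 other settings with every array kept and with each array left out, except that Fosb failed the filter that asks for all 4 arrays. None brought a tested probe of the 10 genes past an adjusted p of 0.05. Of the 10 settings, 5 leave the folds as they are, and under the other 5 (3 scalings, normexp and the authors' values) 63 of 70 folds kept their direction. Under median scaling the median of all probes went from -0.04 to 0.15, and the fold was 0.11 for Fos, 0.0602 for Fosb, 0.0888 for Jun and 0.0197 for Egr1. Fosb was 0.17 under quantile normalization and 0.17 in the authors' deposited log2 values. Jun was 0.0017 with normexp on median signals, added after seeing the data. The planned normexp on mean signals was not run, since the files used give median signals. Over all probes 0 passed the adjusted threshold, but 4 did under median scaling, and the cause was not tested. At an unadjusted p under 0.05, 254 probes were higher and 641 lower, so 28.4% were higher. That share was 67.7% under median scaling (524 and 250), 45.8% under quantile normalization (522 and 618), 45.9% in the authors' values (524 and 618) and 47.4% with normexp (359 and 399). Without the filter on dim probes 1229 were lower. Among the 10 genes, 1 probe was higher and 0 lower at that p, but 0 higher with normexp and 1 lower with an intensity trend.

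With 1 array left out, where the lone array is assumed to vary like the others, the fold ran from -0.53 to 0.35 for Fos, -0.69 to 0.42 for Fosb, -0.22 to 0.0147 for Jun, -1.10 to 0.28 for the dimmer Junb probe, -0.74 to 0.40 for Egr1, -0.56 to 0.72 for Egr2 and -0.22 to 1.43 for the dimmer Hspa1a probe. Counts at an unadjusted p under 0.05 ran from 263 to 915 higher (most without knockout 1) and from 357 (without WT 1) to 2460 lower (without knockout 2). Among the 10 genes they ran from 0 (without WT 1) to 4 higher (without knockout 2) and from 0 to 1 lower (without WT 2).

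Under median scaling the list medians were 0.13 for other AP-1 proteins, 0.20 for other immediate early genes, 0.0944 for upstream factors, 0.19 for chaperones and 0.0589 for integrated stress response genes. Quantile normalization gave 0.0873 for upstream factors and -0.0344 for the stress response. The authors' values gave 0.0875 and -0.0342, and normexp gave -0.22 for AP-1 proteins and -0.0411 for the stress response. Without 1 array the list medians ran from -0.14 to 0.0671, -0.064 to 0.0368, -0.15 to 0.20, -0.13 to 0.0683 and -0.16 to -0.0027 in the order of the lists. Same-numbered arrays deviated from their group means with a correlation of 0.065, so the numbers were not taken as pairs. A replicate block gave 222 probes higher and 644 lower at that p, and the smallest adjusted p among the 10 genes was 0.954.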
